A study of Arabidopsis thaliana with 18 samples.

Results

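The plastid import and plastid transcription genes of the Arabidopsis thaliana nucleus were followed here through the roots of 6 genotypes. They are the genes whose symbol in the deposited table begins with TIC, TOC or PTAC and a number, or is one of the sigma factor symbols, with the clock gene of the symbol TOC1 left out. The rule used no measured value and found 42 genes of the 25177 in the table. They comprise 10 genes of the translocon at the outer chloroplast envelope (TOC), 12 of the translocon at the inner envelope (TIC), 14 of the plastid transcriptionally active chromosome (PTAC) and 6 sigma factors (SIG). All 42 passed the filter on low counts that kept 21004 genes. The table names 4 of the sigma factors by letters, and SIGA, SIGC, SIGE and SIGF are called SIG1, SIG3, SIG5 and SIG6 here.

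RNA was sequenced from root tips of 4-day-old seedlings (the sample titles give 4 days and the series' design text 3), grown on solid MS medium with sucrose under 16 h of light a day, with no further treatment. The 6 genotypes were a pair of double mutants, gun1-101 rab8d-2 on the one hand and nac103-11 rab8d-2 on the other, their 3 single-mutant parents and the wild type Col-0 (WT). Each had 3 libraries called biological replicates. The labels do not say whether these came from separate cultures, so p-values measure the spread between these libraries. The allele rab8d-2 affects RABE1b, the plastid translation elongation factor EF-Tu, gun1-101 affects the plastid signalling protein GUN1, and nac103-11 affects the transcription factor NAC103, and the double mutants address what GUN1 and NAC103 do in rab8d-2 roots. RABE1b averaged 7.52 ± 1.44 CPM (counts scaled to library size) in gun1-101 rab8d-2 roots, 10.1 ± 4.95 in nac103-11 rab8d-2 roots and 13.7 ± 4.53 in rab8d-2 roots, against 98.9 ± 12.2 in gun1-101, 115 ± 24.2 in nac103-11 and 137 ± 34.8 in WT roots (SD, n = 3 each). GUN1 averaged 54.1 ± 5.57 CPM in gun1-101 rab8d-2, against 108 ± 14.7 CPM in rab8d-2 roots, and 79.6 ± 11.7 CPM in gun1-101, against 147 ± 16.7 CPM in WT roots (SD, n = 3 each). In nac103-11 rab8d-2 and nac103-11, which do not carry gun1-101, GUN1 averaged 74.8 ± 2.81 and 130 ± 25.6 CPM (SD, n = 3 each). Its level thus did not by itself mark the genotypes with gun1-101. NAC103 averaged 6.24 ± 2.66 CPM in nac103-11 rab8d-2, against 19.6 ± 9.29 CPM in rab8d-2 roots, and 0.136 ± 0.0507 CPM in nac103-11, against 1.07 ± 0.797 CPM in WT roots (SD, n = 3 each), so its transcript was still counted in nac103-11 rab8d-2. CPM values are also scaled for library composition (TMM). The effect of rab8d-2 was measured in 3 backgrounds, which are the gun1-101 background (gun1-101 rab8d-2 against gun1-101), the nac103-11 background (nac103-11 rab8d-2 against nac103-11) and the WT background (rab8d-2 against WT). The average effect is the mean of the 3, and sets the 9 libraries with rab8d-2 against the 9 without. A gene was called where the adjusted p of edgeR's quasi-likelihood test was below 0.05 over all 21004 genes.

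Most plastid proteins are encoded in the nucleus, made in the cytosol and imported through the TOC and TIC complexes, in which GTPase receptors recognise the transit peptide, TOC75 forms the outer channel and TIC proteins form the inner channel and its chaperone and redox partners. Inside the plastid, genes are transcribed by a bacterial-type polymerase, whose core is encoded in the plastid and which needs nuclear-encoded PTAC proteins and sigma factors, and by phage-type polymerases that are encoded in the nucleus. Root plastids are not photosynthetic, but they import enzymes of amino acid, lipid and starch metabolism.

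Libraries held between 22625991 and 23090977 expected counts, with TMM factors of 0.706 to 1.17. The trend with transcript length was measured on each gene's level relative to its mean over the 18 libraries. In 3 libraries this relative level fell most steeply with length. The fall on the log2 scale per doubling of length was 0.57 in nac103-11 rab8d-2 replicate 3, and 0.26 and 0.31 in WT replicates 1 and 2. The other 15 had slopes between -0.06 and 0.32, with the steepest rises, 0.32 and 0.27, in gun1-101 rab8d-2 replicates 1 and 2. The clock gene CCA1 stood at 5.5 to 35 TPM (a level per transcript length, scaled to the library) in gun1-101 rab8d-2 replicate 3, rab8d-2 replicate 3, all 3 gun1-101 libraries and WT replicate 3, and at or below 0.42 TPM in the other 12. By the average effect, all 3 markers each of root hair, endodermis and xylem were called lower in the libraries with rab8d-2 (24.5% of all genes). All 3 of the meristem were called higher (27.1% of all genes), and no marker was at 0 in all libraries. The summed level of the meristem markers was 15.9 to 41.9 TPM with rab8d-2 and 10.6 to 17 TPM without it. In bulk tissue, fewer cells of a type and less RNA per cell cannot be told apart, and the part of cell composition in the results below was not tested.

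Promoters of the 42 genes, taken as the 250 bases before the RefSeq gene start, were searched on both strands for 7 motifs, none of whose letters contain another's. The site II element TGGGCC was found in 15 of the 42 (35.7%), and in 14.5% of the 25176 promoters searched in all. The 6 genes that were both called in the libraries with rab8d-2 against those without and hold a site II element are given here with the 150 bases before the gene start, because they lie on both sides of the result. The first 4 were called higher and the last 2 lower. Sequences are from RefSeq (TAIR10.1), 5′ to 3′ on the gene's strand, with the element or its reverse complement in capitals.
TOC120 (chr3:5662067-5662216, minus strand): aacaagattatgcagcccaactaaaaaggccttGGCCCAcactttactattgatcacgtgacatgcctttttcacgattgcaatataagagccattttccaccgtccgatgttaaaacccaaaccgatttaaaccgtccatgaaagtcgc
TOC75-IV (chr4:5803638-5803787, plus strand): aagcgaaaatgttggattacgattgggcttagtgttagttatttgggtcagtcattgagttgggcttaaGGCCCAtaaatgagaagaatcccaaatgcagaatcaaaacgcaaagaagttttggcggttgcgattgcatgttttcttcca
PTAC9 (chr4:10841785-10841934, plus strand): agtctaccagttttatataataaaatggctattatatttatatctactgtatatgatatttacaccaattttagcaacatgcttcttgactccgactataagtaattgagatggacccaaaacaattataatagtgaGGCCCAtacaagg
PTAC15 (chr5:21988307-21988456, plus strand): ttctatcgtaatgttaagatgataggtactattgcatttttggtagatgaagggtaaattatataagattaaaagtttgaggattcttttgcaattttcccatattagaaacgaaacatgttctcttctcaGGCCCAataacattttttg
SIG1 (chr1:24097586-24097735, plus strand): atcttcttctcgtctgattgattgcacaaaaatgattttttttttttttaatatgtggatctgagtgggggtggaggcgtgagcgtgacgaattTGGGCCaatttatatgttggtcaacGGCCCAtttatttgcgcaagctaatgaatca
SIG6 (chr2:15540140-15540289, minus strand): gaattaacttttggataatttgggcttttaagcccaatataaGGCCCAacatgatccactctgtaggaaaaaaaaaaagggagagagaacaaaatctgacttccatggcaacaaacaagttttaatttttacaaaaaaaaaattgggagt
The element thus stood upstream of 4 of the 9 genes called higher and of 2 of the 6 called lower. The G-box CACGTG was found in 4 of the 42 (9.52%, against 6.87% of all promoters), the CCA1 binding site AAAAATCT in 3 (7.14%, against 6.65%), the evening element AAAATATCT in 1 (2.38%, against 2.39%) and the I-box GATAAG in 4 (9.52%, against 12.3%). Neither the telo-box AAACCCTA (4.19% of all promoters) nor the mitochondrial dysfunction motif (0.707%) was found in any of the 42. A match is a description of the letters in this window and not of a factor bound there.

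The mean levels of the 42 genes ran from 0.17 TPM for SIG4 to 45.4 TPM for TIC32-IVa. Among TOC genes TOC34, a GTPase receptor, was the most abundant with a mean of 37.7 TPM over the 18 libraries, followed by the channel TOC75-III with 26.2 TPM, and the short channel homologue TOC75-IV was the least abundant with 0.946 TPM. TOC34 stood at 34.8, 35 and 43 TPM in gun1-101 rab8d-2 libraries, at 50.1, 43.8 and 36.7 TPM in nac103-11 rab8d-2, at 43.5, 49.6 and 39.8 TPM in rab8d-2, at 30.9, 29.7 and 29.4 TPM in gun1-101, at 41.1, 38.5 and 37.4 TPM in nac103-11 and at 32, 32.1 and 31.8 TPM in WT. It exceeded its paralogue TOC33 in every library, with a ratio of TPM whose median ran from 1.64 to 2.02 between genotypes. TOC34 and TOC33 are known to serve the same step with some preference for different precursors.

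**Figure D1:**
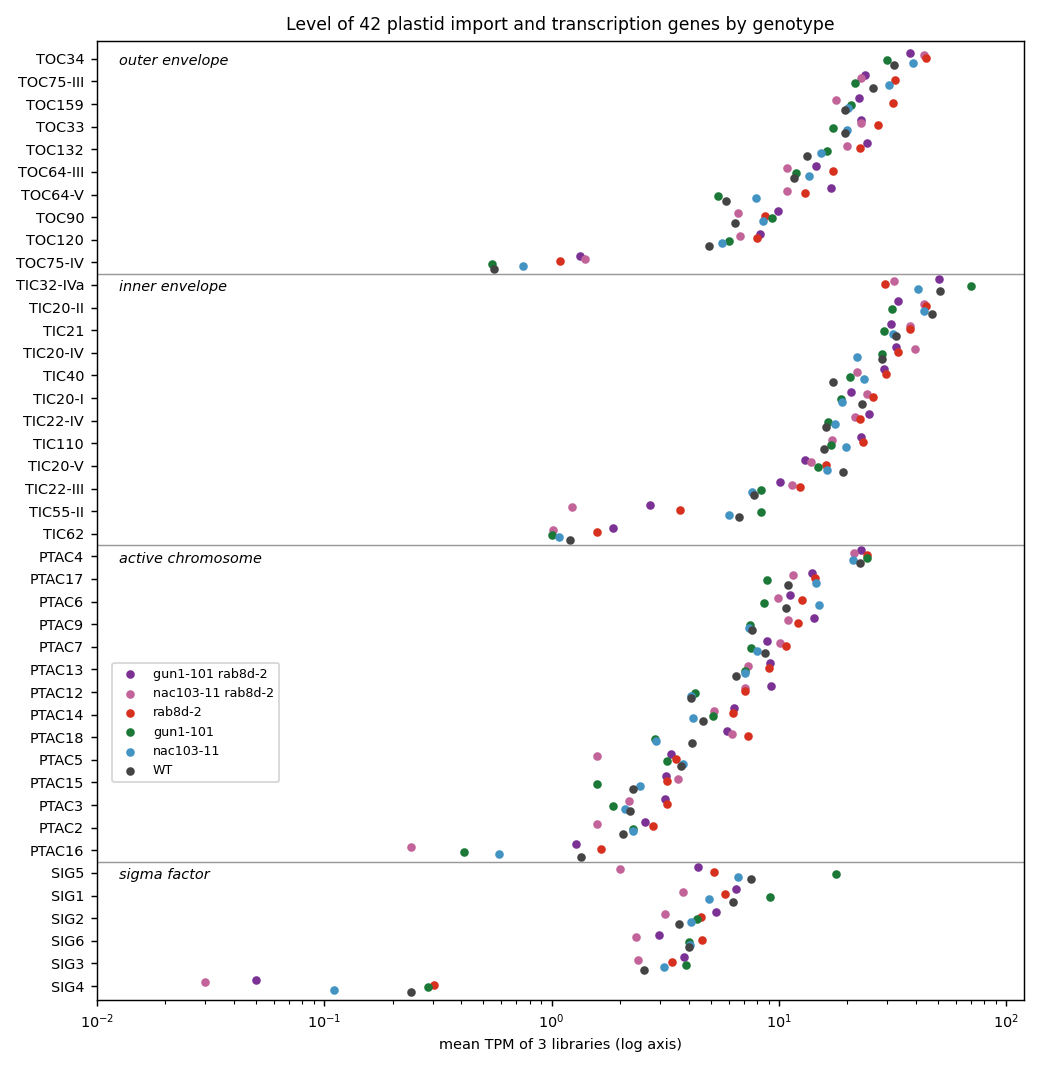
Mean level of each of the 42 genes in TPM (x axis, logarithmic) in the 6 genotypes (colours, mean of 3 libraries each), grouped by role and ordered by level within a role. SIG4, with a mean of 0.17 TPM over all libraries, lies lowest and TIC32-IVa, with 45.4 TPM, highest.

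Of the 4 GTPase receptors TOC159, TOC132, TOC120 and TOC90, TOC159 was the most abundant in the single mutants and WT, TOC132 next, and TOC120 and TOC90 lower. TOC159 is the receptor linked to photosynthetic precursors, and TOC132 and TOC120 are linked to housekeeping precursors. TOC132 made up 37.4% to 37.6% of the summed TPM of the 4 receptors in gun1-101 rab8d-2, against 29.7% to 32.3% in gun1-101 libraries. It made up 34.3% to 40.6% in nac103-11 rab8d-2, against 28.7% to 33.7% in nac103-11 libraries, and 28.6% to 35.4% in rab8d-2, against 27.5% to 31.4% in WT libraries. TOC159 made up 33.3% to 35.8% in gun1-101 rab8d-2, against 38.9% to 40.4% in gun1-101 libraries. In nac103-11 rab8d-2 its share was 32.2% to 42.8%, against 36.1% to 43.4% in nac103-11 libraries. The shares of both receptors thus did not overlap between gun1-101 rab8d-2 and gun1-101, and they overlapped between rab8d-2 and WT. Between nac103-11 rab8d-2 and nac103-11 the shares of TOC132 did not overlap and those of TOC159 did. Some reads of TOC159, TOC132 and TOC120 were split between genes by the counting, and their transcripts differ in length (6349, 4328 and 3576 bases), and the part of the length trend in the shares was not tested.

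Among TIC genes TIC32-IVa, a redox-linked dehydrogenase, had the highest mean with 45.4 TPM, followed by TIC20-II, a homologue of the inner channel protein TIC20-I, with 40.4 TPM, and TIC62, another dehydrogenase-like protein, had the lowest with 1.29 TPM. TIC62 stood at 1.97, 1.73 and 1.89 TPM in gun1-101 rab8d-2, at 1.4, 1.12 and 0.51 TPM in nac103-11 rab8d-2, at 2.02, 1.28 and 1.47 TPM in rab8d-2, at 1.02, 0.89 and 1.09 TPM in gun1-101, at 1.15, 0.93 and 1.16 TPM in nac103-11 and at 0.8, 0.59 and 2.21 TPM in WT libraries. Its lowest library was nac103-11 rab8d-2 replicate 3 and its highest WT replicate 3. TIC20-IV, the paralogue known as the root form of TIC20, had 30.7 TPM and TIC20-I had 22 TPM. Of the PTAC genes, PTAC4, which encodes the membrane protein VIPP1, had 22.8 TPM and PTAC16, a thylakoid-associated protein, 0.918 TPM. PTAC4 stood at 19.8, 21.7 and 27.3 TPM in gun1-101 rab8d-2, at 22.6, 27.3 and 14.1 TPM in nac103-11 rab8d-2, at 27.3, 22.5 and 23.4 TPM in rab8d-2, at 23.8, 23.9 and 25.6 TPM in gun1-101, at 21.3, 21.2 and 20.9 TPM in nac103-11 and at 23.5, 19.8 and 24.6 TPM in WT libraries. Genotypes with rab8d-2 overlapped with their counterparts without it, while gun1-101 lay wholly above nac103-11. The other 12 PTAC genes lay between 2.26 and 12.4 TPM. Sigma factors were low, with 7.24 TPM for SIG5, 6.07 TPM for SIG1 and 3.19 to 4.17 TPM for SIG2, SIG3 and SIG6. SIG4 had the lowest level of all.

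The least abundant PTAC gene and the least abundant sigma factor had their 2 highest levels in the same 2 libraries. PTAC16 stood at 0.94, 0.94 and 1.95 TPM in gun1-101 rab8d-2, at 0.3, 0 and 0.42 TPM in nac103-11 rab8d-2, at 3.99, 0.7 and 0.25 TPM in rab8d-2, at 0.28, 0.35 and 0.61 TPM in gun1-101, at 0.12, 0.58 and 1.07 TPM in nac103-11 and at 0.23, 0.74 and 3.06 TPM in WT libraries. SIG4 had 27.3 expected counts in rab8d-2 replicate 1, 10.2 and 13.2 in gun1-101 replicates 2 and 3, 17 in WT replicate 3 and 0 to 7 in each of the other 14. Both genes thus peaked in rab8d-2 replicate 1 and WT replicate 3. Those libraries also had the highest summed level of the 8 photosynthetic shoot markers, 920 and 775 TPM, against 10.5 to 407 TPM in the other 16. None of the 8 was at 0 in all libraries, and their part in the levels of PTAC16 and SIG4 was not tested.

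By the average effect, the largest changes among the genes called were rises of TOC75-IV, TOC64-V and PTAC18 and falls of TIC55-II and SIG5, while most of the genes were not called in any background. In the gun1-101 background 7 were called, where 28.3% of all genes were. Of these 4 were higher (12.7% of all genes), namely TOC64-V, TOC75-IV, TIC22-IV and PTAC9, and 3 were lower (15.7% of all genes), namely TIC55-II, TIC32-IVa and SIG5. In the nac103-11 background 5 were called (29% of all genes), with TIC20-IV, TIC22-III, PTAC9 and PTAC18 higher (14.7% of all genes) and TIC55-II lower (14.3%). In the WT background 3 were called (12.3% of all genes), with TOC64-V and TOC159 higher (4.8%) and TIC32-IVa lower (7.5%). By the average effect 15 were called (51.6% of all genes), 9 higher (27.1% of all genes) and 6 lower (24.5%). As shares of the 42 these are 16.7%, 11.9%, 7.14% and 35.7%, each below the share of all genes.

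Members were also counted by whether the libraries with and without rab8d-2 overlapped. In the gun1-101 background 17 genes lay higher in every library (33.3% of all genes) and 9 lower (31%). In the nac103-11 background 7 lay higher (20.4%) and 8 lower (20.4%), and in the WT background 7 higher (13.2%) and 1 lower (15.1%). Over all 18 libraries 1 was separated upward (2.43%) and none downward (4.5%). The median log2 fold change of the 42 was 0.09 in the gun1-101 background, -0.10 in the nac103-11 background, 0.20 in the WT background and 0.09 for the average effect, beside 0.05, 0.09, 0.01 and 0.07 for all genes tested. Of the 42, 11 were called in at least 1 background, 4 in at least 2 and none in all 3, and 21 had the same sign in all 3. In none of the 10 comparisons made were 24 of the 42 called by edgeR. These counts over backgrounds and comparisons were not made for all genes, so they cannot be set against a share of all genes.

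**Figure D2:**
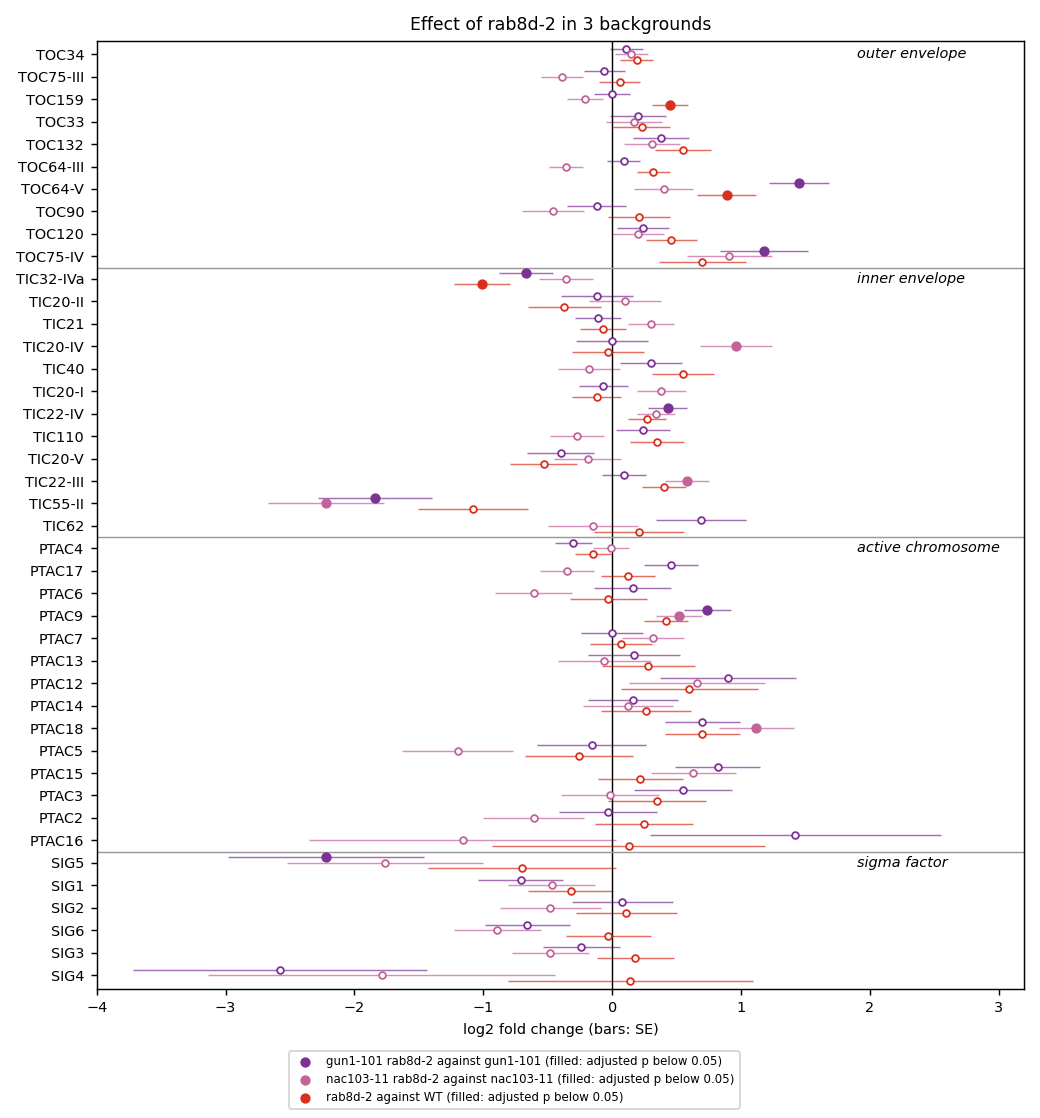
Log2 fold change of each gene for rab8d-2 in 3 backgrounds (x axis; bars are the SE; filled points have an adjusted p below 0.05). Filled points are few, 7, 5 and 3 in the gun1-101, nac103-11 and WT backgrounds; the farthest to the right is TOC64-V in the gun1-101 background (1.45).

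In the outer envelope group TOC64-V rose with the smallest adjusted p. This gene, also known as OM64, is related to the chloroplast docking protein TOC64-III, but its product is known as a receptor of the mitochondrial outer membrane, so it enters the list by its symbol and not by a role in plastids. It stood at 34.2, 36.1 and 29.9 CPM in gun1-101 rab8d-2, against 12.3, 10.8 and 13.5 CPM in gun1-101 libraries. It stood at 29.4, 25.1 and 18.1 CPM in nac103-11 rab8d-2, against 19.5, 17.6 and 18 CPM in nac103-11 libraries. It stood at 21.2, 39 and 21.1 CPM in rab8d-2, against 14.8, 13.1 and 15.9 CPM in WT libraries. All libraries of gun1-101 rab8d-2 and rab8d-2 lay above those of gun1-101 and WT, while nac103-11 rab8d-2 replicate 3 lay within the nac103-11 range. The log2 fold change was 1.45 ± 0.23 (SE, adjusted p = 0.000516) in the gun1-101 background, 0.40 ± 0.23 (adjusted p = 0.199) in the nac103-11 background and 0.89 ± 0.23 (adjusted p = 0.0231) in the WT background. The last value rests partly on rab8d-2 replicate 2, without which it was 0.53 (adjusted p = 0.144). The average over the 3 backgrounds was 0.91 ± 0.13 (adjusted p = 6.15e-05).

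TOC75-IV is known as a homologue of the TOC75 channel that lacks its amino-terminal part, with a role in etioplasts. Its level was low but higher with rab8d-2. It stood at 1.73, 1.96 and 1.62 CPM in gun1-101 rab8d-2, against 1.05, 0.627 and 0.658 CPM in gun1-101 libraries, a log2 fold change of 1.18 ± 0.34 (adjusted p = 0.0184). It stood at 2.25, 2.26 and 2 CPM in nac103-11 rab8d-2, against 1.05, 1.3 and 1.11 CPM in nac103-11 libraries, a change of 0.91 ± 0.33 (adjusted p = 0.0511). It stood at 1.37, 1.97 and 1.3 CPM in rab8d-2, against 1.49, 0.754 and 0.609 CPM in WT libraries, a change of 0.70 ± 0.34 (adjusted p = 0.175). The groups did not overlap in the gun1-101 and nac103-11 backgrounds, and WT replicate 1 lay within the rab8d-2 range. Each library held 14 to 57 reads of this gene, and its call in the gun1-101 background was lost in 4 of 28 alternative analyses. On average it rose by 0.93 ± 0.19 on the log2 scale (adjusted p = 0.00118), while the main channel gene TOC75-III had a change of -0.13 ± 0.09 (adjusted p = 0.242).

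The receptor TOC159 was called in the WT background. It stood at 175, 163 and 164 CPM in rab8d-2, against 139, 97.6 and 130 CPM in WT libraries, a log2 fold change of 0.45 ± 0.14 (adjusted p = 0.0482), and the libraries did not overlap. It stood at 125, 118 and 107 CPM in gun1-101 rab8d-2, against 117, 120 and 114 CPM in gun1-101 libraries. It stood at 105, 112 and 96.2 CPM in nac103-11 rab8d-2, against 109, 129 and 124 CPM in nac103-11 libraries. The single mutant rab8d-2 was thus the only genotype above 139 CPM. TOC159 has the longest transcript of the 42, and with the length trend of each library removed the change in the WT background was -0.08 (adjusted p = 0.855). The call was lost in 19 more of 28 alternative analyses (other tools, scalings and filters, added terms and left-out libraries).

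TOC132 and TOC120 were called by the average effect and in no single background. TOC132 had 56.4, 88.4 and 105 CPM as the lowest, median and highest of the 9 libraries with rab8d-2 and 41.5, 65.5 and 74.9 CPM of the 9 without. Its log2 fold change was 0.41 ± 0.13 (adjusted p = 0.0152), and 0.17 (adjusted p = 0.0799) with the length trend removed. TOC120 stood at 17.8, 26 and 31.2 CPM with rab8d-2 and at 14.3, 21.7 and 23.8 CPM without it, a change of 0.30 ± 0.11 (adjusted p = 0.0375). It lost its call in 12 of 27 alternative analyses. The other receptors and channel genes (TOC90, TOC33, TOC34, TOC75-III and TOC64-III) had average changes between -0.13 and 0.20, none called. In rab8d-2 against WT all 10 TOC genes had a positive log2 fold change, with a median of 0.38 (0.01 over all genes). In the gun1-101 background 7 of 10 were positive (median 0.15, all genes 0.05) and in the nac103-11 background 6 of 10 (median 0.16, all genes 0.09). The share of all genes with a positive change was not counted. WT replicates 1 and 2 are among the libraries with a falling length trend, and 7 of the 10 TOC transcripts are longer than the median of the 42.

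**Figure D3:**
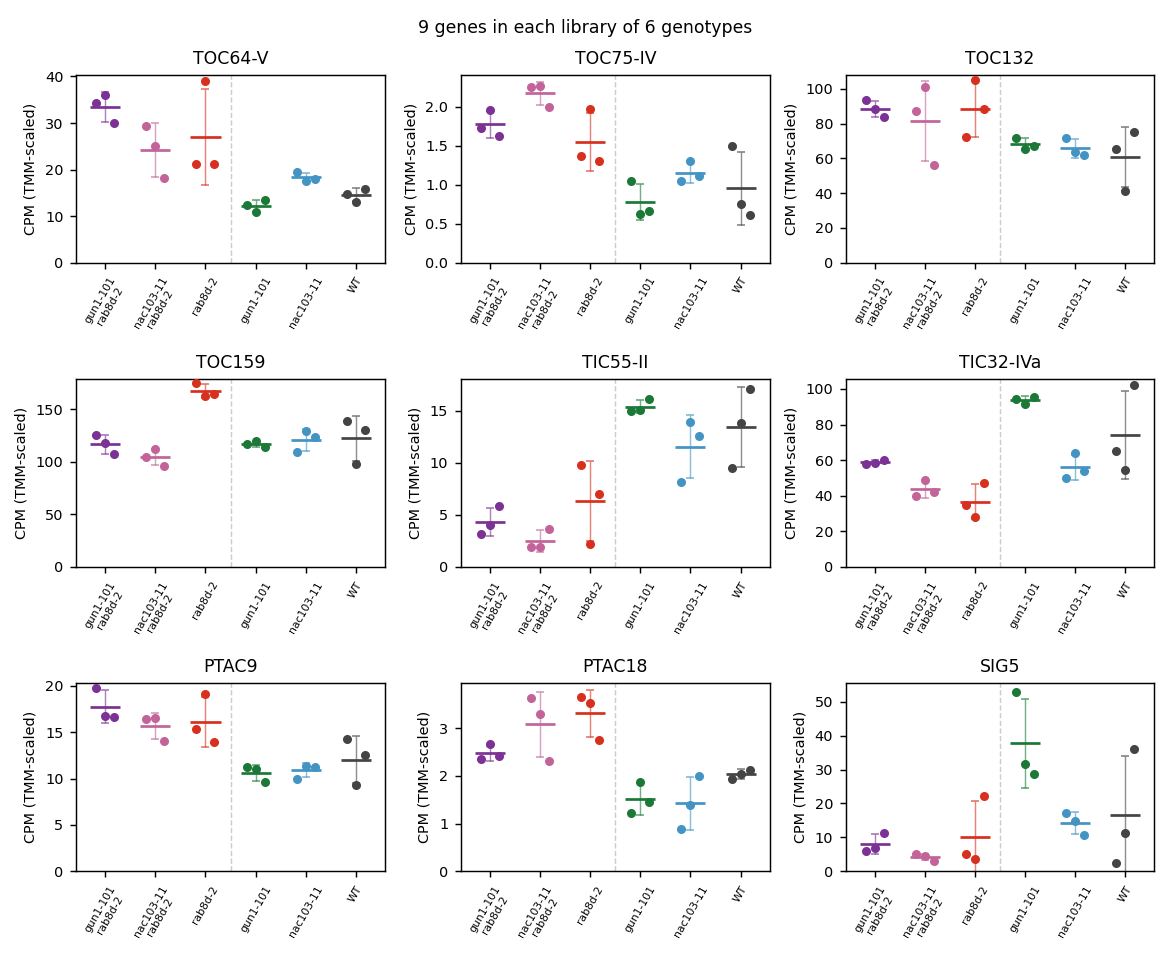
TMM-scaled CPM (y axes, from 0) of 9 genes in each library of the 6 genotypes; points are libraries, bars the mean and its SD of 3 libraries, and the dashed line separates genotypes with rab8d-2 (left) from those without. PTAC18 is separated by the line in all 18 libraries, while SIG5 spans 2.54 to 36.2 CPM within WT alone.

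Among TIC genes, the largest change was a fall of TIC55-II, an iron-sulphur Rieske protein of the inner envelope that is also known to hydroxylate chlorophyll breakdown products. It stood at 3.14, 3.99 and 5.81 CPM in gun1-101 rab8d-2, against 15, 15.1 and 16.1 CPM in gun1-101 libraries, a log2 fold change of -1.84 ± 0.44 (adjusted p = 0.00683). It stood at 1.9, 1.9 and 3.69 CPM in nac103-11 rab8d-2, against 8.2, 13.9 and 12.6 CPM in nac103-11 libraries, a change of -2.22 ± 0.45 (adjusted p = 0.00277). Both double mutants thus lay below their single-mutant parent in every library. In rab8d-2 roots it stood at 9.83, 2.21 and 7.01 CPM, against 9.46, 13.8 and 17.1 CPM in WT roots, a change of -1.08 ± 0.43 (adjusted p = 0.105), where rab8d-2 replicate 1, the library with the highest level of photosynthetic shoot markers, overlapped with WT replicate 1. On average it fell by 1.71 ± 0.25 on the log2 scale (adjusted p = 8.25e-05), and this call held in all 27 alternative analyses, with values between -1.97 and -1.27. Of the 8 photosynthetic shoot markers, 5 were called lower by the average effect too (24.5% of all genes), and none was at 0 in all libraries. The summed level of the 8 was 10.5 to 920 TPM with rab8d-2 and 103 to 775 TPM without it. Their part in the level of TIC55-II was not tested.

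TIC32-IVa stood at 58.1, 58.4 and 60.3 CPM in gun1-101 rab8d-2, against 94.6, 91.3 and 95.7 CPM in gun1-101 libraries, a log2 fold change of -0.67 ± 0.21 (adjusted p = 0.0303). It stood at 34.9, 27.9 and 47.2 CPM in rab8d-2, against 65.3, 54.7 and 102 CPM in WT libraries, a change of -1.01 ± 0.22 (adjusted p = 0.0115), which was -0.85 (adjusted p = 0.069) without rab8d-2 replicate 2. In nac103-11 rab8d-2 it stood at 39.9, 49.1 and 42 CPM, against 50.2, 63.9 and 54.2 CPM in nac103-11 libraries, a change of -0.36 ± 0.21 (adjusted p = 0.219). No library with rab8d-2 reached any library of its own background without it. The 4 highest values, 91.3 to 102 CPM, were all in libraries without rab8d-2 and with CCA1 above 1 TPM. Within the libraries with CCA1 above 1 TPM the gene ranged from 47.2 to 60.3 CPM with rab8d-2 (2 libraries) and from 91.3 to 102 CPM without it (4 libraries), and within the other 12 from 27.9 to 58.4 CPM with rab8d-2 (7 libraries) and from 50.2 to 65.3 CPM without it (5 libraries). With a term for CCA1 above 1 TPM in the fit, the change in the gun1-101 background was -0.34 (adjusted p = 0.206), and the call there was lost in 9 of 28 alternative analyses. All gun1-101 libraries but only replicate 3 of gun1-101 rab8d-2 had CCA1 above 1 TPM, so clock state and rab8d-2 cannot be fully told apart there. The average change was -0.68 ± 0.12 (adjusted p = 0.00042), and between -0.85 and -0.52 in the alternative analyses.

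The 2 genes of TIC22, the intermembrane space protein that helps precursors across, both rose on average. TIC22-IV stood at 22.7, 21.6 and 22.5 CPM in gun1-101 rab8d-2, against 17.7, 13.7 and 18 CPM in gun1-101 libraries, a log2 fold change of 0.43 ± 0.15 (adjusted p = 0.0419). In nac103-11 rab8d-2 it stood at 24.8, 22.7 and 18.9 CPM, against 19.2, 16.6 and 16.6 CPM in nac103-11 libraries, and in rab8d-2 at 20.2, 23.5 and 19.1 CPM, against 16.4, 16.6 and 19.2 CPM in WT libraries. TIC22-III stood at 16.1, 19.4 and 19.3 CPM in nac103-11 rab8d-2, against 12.1, 12.2 and 12.3 CPM in nac103-11 libraries, a change of 0.58 ± 0.17 (adjusted p = 0.0195). It stood at 12.4, 13.8 and 15.1 CPM in gun1-101 rab8d-2, against 12.8, 14.6 and 11.5 CPM in gun1-101 libraries, and at 16.7, 21.1 and 16 CPM in rab8d-2, against 15.6, 14.6 and 10.7 CPM in WT libraries. The libraries of TIC22-III overlapped in the gun1-101 background, and those of TIC22-IV overlapped in the other 2 backgrounds. Each of the 2 genes had an average change of 0.35, with an SE of 0.09 for TIC22-IV (adjusted p = 0.00408) and 0.10 for TIC22-III (adjusted p = 0.00764), and both of these calls held in all 27 alternative analyses. The call of TIC22-IV in the gun1-101 background was lost in 11 of 28 alternative analyses, and that of TIC22-III in the nac103-11 background in 5 of 28.

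TIC20-IV was called in the nac103-11 background, but on the strength of 1 library. It stood at 34.5, 42.4 and 93.1 CPM in nac103-11 rab8d-2, against 23.2, 32.3 and 31.7 CPM in nac103-11 libraries, a log2 fold change of 0.96 ± 0.28 (adjusted p = 0.0185). Without nac103-11 rab8d-2 replicate 3, the library with the strongest length trend, it was 0.39 (adjusted p = 0.0923). It stood at 34.9, 34.7 and 39.3 CPM in gun1-101 rab8d-2, against 37.3, 34.5 and 36.8 CPM in gun1-101 libraries, and at 43.6, 39.4 and 35.6 CPM in rab8d-2, against 34.2, 47.3 and 39.4 CPM in WT libraries, so the groups overlapped in both. TIC20-V was called lower by the average effect alone, with 8.1, 9.18 and 15.2 CPM as the lowest, median and highest with rab8d-2 and 9.05, 12.8 and 19.1 CPM without it. Its change of -0.37 ± 0.15 (adjusted p = 0.0487) lost its call in 18 of 27 alternative analyses. The 7 TIC genes not called by the average effect (TIC110, TIC40, TIC20-I, TIC20-II, TIC20-IV, TIC21 and TIC62) had average changes between -0.13 and 0.31. They include the scaffold protein TIC110 and its co-chaperone partner TIC40.

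In the transcription group PTAC9 and PTAC18 rose. PTAC9, also known as OSB2, is a single-stranded DNA-binding protein of plastids. It stood at 19.8, 16.8 and 16.7 CPM in gun1-101 rab8d-2, against 11.2, 11 and 9.65 CPM in gun1-101 libraries, a log2 fold change of 0.74 ± 0.18 (adjusted p = 0.00636). It stood at 16.4, 16.5 and 14.1 CPM in nac103-11 rab8d-2, against 10, 11.4 and 11.3 CPM in nac103-11 libraries, a change of 0.52 ± 0.18 (adjusted p = 0.0364), and at 15.3, 19.1 and 13.9 CPM in rab8d-2, against 14.3, 9.32 and 12.5 CPM in WT libraries, a change of 0.42 ± 0.17 (adjusted p = 0.122). The libraries were separate in the gun1-101 and nac103-11 backgrounds, and in the third WT replicate 1 exceeded rab8d-2 replicate 3. On average it rose by 0.56 ± 0.10 (adjusted p = 0.000396), a call that held in all 27 alternative analyses, while its call in the nac103-11 background was lost in 9 of 28.

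PTAC9 and PTAC14 lie 148 and 111 kb from RABE1b on chromosome 4 (starts, TAIR10.1). PTAC14, a SET-domain protein required for the bacterial-type polymerase, had an average change of 0.18 ± 0.20 (adjusted p = 0.472). Of the 65 other genes tested within 200 kb of RABE1b, 14 were called higher and 20 lower by the average effect (52.3%, against 51.6% of all genes).

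PTAC18, a small cupin-fold protein, was the only one of the 42 whose 9 libraries with rab8d-2 all lay above the 9 without. Of all genes tested, 2.43% were separated in this direction. It stood at 2.35, 2.66 and 2.41 CPM in gun1-101 rab8d-2, against 1.22, 1.88 and 1.45 CPM in gun1-101 libraries. It stood at 3.64, 3.29 and 2.31 CPM in nac103-11 rab8d-2, against 0.883, 1.39 and 1.99 CPM in nac103-11 libraries, and at 3.65, 3.54 and 2.75 CPM in rab8d-2, against 1.94, 2.05 and 2.13 CPM in WT libraries. The log2 fold change was 0.70 ± 0.29 (adjusted p = 0.0805) in the gun1-101 background, 1.12 ± 0.29 (adjusted p = 0.0109) in the nac103-11 background and 0.70 ± 0.29 (adjusted p = 0.117) in the WT background. The average was 0.84 ± 0.17 (adjusted p = 0.00083), between 0.76 and 0.97 in the alternative analyses. Its transcript is the shortest of the 42 with 628 bases, and in all 18 libraries some of its reads were split with other genes by the counting.

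PTAC15, a protein of the mTERF family of organelle gene expression factors, was called by the average effect, with 3.24, 5.4 and 9.88 CPM as the lowest, median and highest with rab8d-2 and 2.37, 4.37 and 5.87 CPM without it. Its change was 0.56 ± 0.19 (adjusted p = 0.0249), and 0.37 (adjusted p = 0.0703) with nac103-11 rab8d-2 replicate 3 and WT replicate 3 both left out. The other 11 PTAC genes were called by edgeR in none of the 10 comparisons. PTAC12, the phytochrome-signalling protein HEMERA, had an average change of 0.72 ± 0.31 (adjusted p = 0.0623), with nac103-11 rab8d-2 replicate 3 at 3 CPM beside 18.3 and 20.2 CPM in the other 2 libraries of its genotype. PTAC5 had an average change of -0.54 ± 0.25 (adjusted p = 0.0776). DESeq2 called PTAC12 by the average effect (0.72, adjusted p = 0.0388), where it called 55.3% of all genes. It called PTAC5 in the nac103-11 background (-1.22, adjusted p = 0.0212), where it called 34.4%. The remaining genes, among them PTAC2, PTAC3, PTAC6, PTAC7 and PTAC13, which belong to or accompany the bacterial-type polymerase, had average changes between -0.16 and 0.29.

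Of the 6 sigma factors, SIG1, SIG5 and SIG6 fell by the average effect (24.5% of all genes were called lower) and none rose. All 6 average log2 fold changes were negative, SIG4 with its few reads included, with a median of -0.51 beside 0.07 for all genes. SIG5, the sigma factor known to respond to blue light, stress and the clock, changed most of the 3. It stood at 5.96, 6.92 and 11.4 CPM in gun1-101 rab8d-2, against 52.9, 31.6 and 28.7 CPM in gun1-101 libraries, a log2 fold change of -2.22 ± 0.76 (adjusted p = 0.0405). It stood at 5.06, 4.4 and 3.13 CPM in nac103-11 rab8d-2, against 17.3, 14.7 and 10.7 CPM in nac103-11 libraries, a change of -1.76 ± 0.76 (adjusted p = 0.0957). In rab8d-2 it stood at 5.06, 3.46 and 22.2 CPM, against 2.54, 11.3 and 36.2 CPM in WT libraries, a change of -0.70 ± 0.73 (adjusted p = 0.534). The libraries were separate in the 2 mutant backgrounds and overlapped between rab8d-2 and WT.

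SIG5 was higher in most libraries with a high level of the clock gene CCA1. The 3 gun1-101 libraries, WT replicate 3 and rab8d-2 replicate 3, all with CCA1 above 1 TPM, held the 5 highest SIG5 values. The other library with CCA1 above 1 TPM, gun1-101 rab8d-2 replicate 3, stood at 11.4 CPM. It lay below nac103-11 replicates 1 and 2, which reached 17.3 CPM with CCA1 below 1 TPM. Within the libraries with CCA1 above 1 TPM, SIG5 ranged from 11.4 to 22.2 CPM with rab8d-2 (2 libraries) and from 28.7 to 52.9 CPM without it (4 libraries). Within the others it ranged from 3.13 to 6.92 CPM with rab8d-2 (7 libraries) and from 2.54 to 17.3 CPM without it (5 libraries). With a term for CCA1 above 1 TPM in the fit, the change in the gun1-101 background was -0.92 (adjusted p = 0.243), and the call there was lost in 9 of 28 alternative analyses. CCA1 was above 1 TPM in all 3 gun1-101 libraries but only in replicate 3 of gun1-101 rab8d-2. Clock state and rab8d-2 thus cannot be fully told apart in that background. The average change was -1.56 ± 0.43 (adjusted p = 0.0078), and its call held in all 27 alternative analyses, with values between -1.98 and -1.08.

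**Figure D4:**
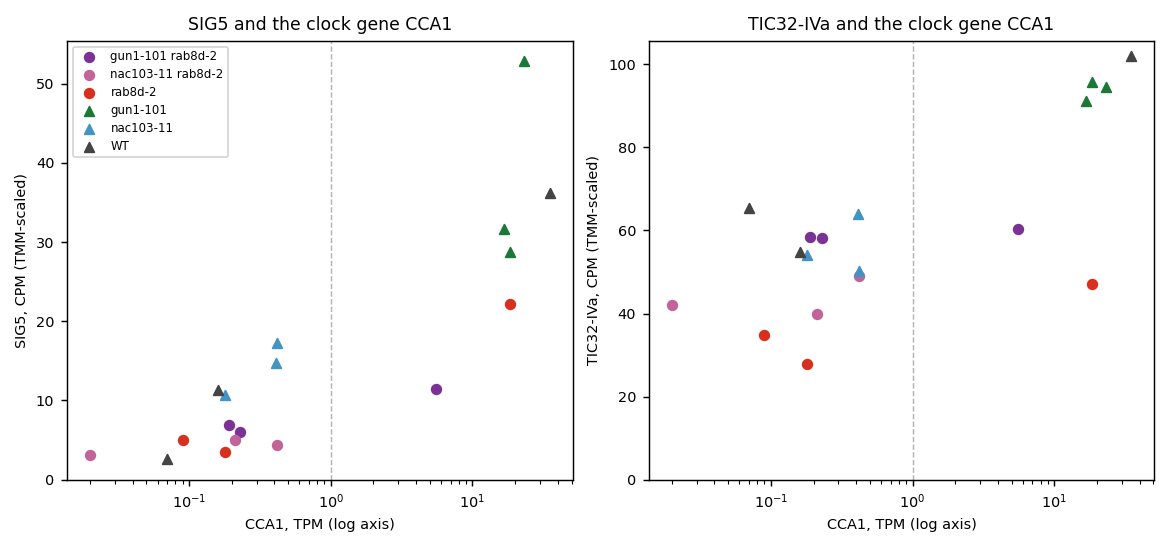
Level of SIG5 (left) and TIC32-IVa (right) in TMM-scaled CPM against the level of CCA1 in TPM (x axis, logarithmic) in each of 18 libraries; circles are libraries with rab8d-2, triangles those without, and the dashed line is 1 TPM. Right of the line the 4 triangles lie above the 2 circles in both panels.

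SIG1 stood at 4.25, 10.7 and 14.7 CPM as the lowest, median and highest of the libraries with rab8d-2 and at 8.62, 12.9 and 23.4 CPM of those without. Its average change was -0.50 ± 0.19 (adjusted p = 0.0417), and it lost its call in 15 of 27 alternative analyses. SIG1 too was higher where CCA1 was above 1 TPM, with 13.7 to 14.7 CPM with rab8d-2 and 18.3 to 23.4 CPM without it, against 4.25 to 12.2 and 8.62 to 12.9 CPM in the other libraries. SIG6, which acts early in seedling greening, stood at 2.13, 5.65 and 10.8 CPM with rab8d-2 and at 5.28, 8.77 and 11.9 CPM without it, a change of -0.53 ± 0.19 (adjusted p = 0.033) that lost its call in 11 of 27. SIG2 and SIG3 had average changes of -0.10 ± 0.22 (adjusted p = 0.736) and -0.18 ± 0.18 (adjusted p = 0.396). In nac103-11 rab8d-2 against nac103-11 all 6 were negative (median -0.69, all genes 0.09). In the gun1-101 background 5 of 6 were negative (median -0.68, all genes 0.05), and in the WT background 3 of 6 (median 0.04, all genes 0.01). All 6 lay low in nac103-11 rab8d-2 replicate 3, the library with the strongest length trend. Their log2 ratios there to the mean of the other 2 libraries of the genotype ran from -1.51 (SIG2) to -0.16 (SIG4). The part of that library in the median of -0.69 was not tested.

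In 3 libraries the longer of the 42 genes stood apart from the other libraries of the genotype. In nac103-11 rab8d-2 replicate 3, 18 of the 21 genes with transcripts longer than 1812.5 bases, the median of the 42, lay below both other libraries of the genotype, with a median difference of -0.74 on the log2 scale, while the 21 shorter genes had a median of -0.08. In WT replicate 3, 18 of the 21 longer genes lay above both other WT libraries, with a median of 0.74, and the shorter ones had a median of -0.05. In WT replicate 2, 15 of the 21 longer genes lay below both other WT libraries, with a median of -0.70, and the shorter ones had a median of 0.01. The summed level of the 6 sigma factors was 4.75 TPM in nac103-11 rab8d-2 replicate 3, beside 18.1 and 18.2 TPM in the other 2 libraries of its genotype, and 44.3 TPM in WT replicate 3, beside 15 and 13.4 TPM in the other 2 of WT. With nac103-11 rab8d-2 replicate 3 and WT replicate 3 left out, 18 of the 42 were called in the WT background, 15 higher and 3 lower, where 37.6% of all genes were called. The WT libraries left were replicates 1 and 2, whose levels relative to the mean of the 18 libraries fell with transcript length. The median log2 fold change of the 42 was 0.46. With WT replicates 1 and 2 and nac103-11 rab8d-2 replicate 3 left out instead, which left WT replicate 3 alone, that median was -0.02.

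**Figure D5:**
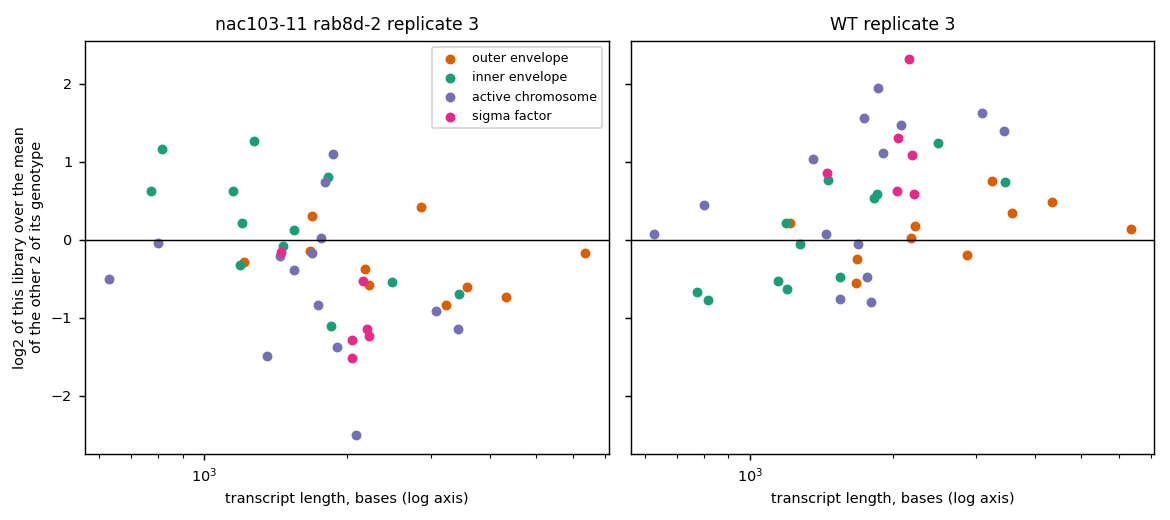
Log2 ratio of a library to the mean of the other 2 libraries of its genotype (y axis) against transcript length in bases (x axis, logarithmic) for each of the 42 genes, coloured by role, in nac103-11 rab8d-2 replicate 3 (left) and WT replicate 3 (right). Most genes with longer transcripts lie below 0 on the left and above 0 on the right.

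The design also sets each double mutant against rab8d-2, and these comparisons share the rab8d-2 libraries with each other and with the WT background. In gun1-101 rab8d-2 against rab8d-2, edgeR called none of the 42 (4.18% of all genes), and DESeq2 called 3 (9.63% of all genes by that tool). Of the 42, 10 had an unadjusted p below 0.05 by edgeR, and the share of all genes at that threshold was not counted. In nac103-11 rab8d-2 against rab8d-2, 2 were called, where 2.54% of all genes were, and both were lower (1.26% of all genes). TOC159 stood at 105, 112 and 96.2 CPM in nac103-11 rab8d-2, against 175, 163 and 164 CPM in rab8d-2 libraries, a log2 fold change of -0.68 ± 0.14 (adjusted p = 0.028), which was -0.22 (adjusted p = 0.73) with the length trend removed and -0.61 (adjusted p = 0.0685) without nac103-11 rab8d-2 replicate 3. TOC64-III, a docking protein for chaperone-bound precursors named here because it was the other gene called, stood at 25.6, 26.3 and 19.9 CPM in nac103-11 rab8d-2, against 35.9, 39.1 and 31.4 CPM in rab8d-2 libraries, a change of -0.57 ± 0.13 (adjusted p = 0.0414). Libraries did not overlap for either gene, and the call of TOC64-III was lost in 20 of 28 alternative analyses.

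In gun1-101 against WT and nac103-11 against WT none of the 42 was called by edgeR or DESeq2. There 0.019% and 0.00952% of all genes were called by edgeR and 0.372% and 0.277% by DESeq2. By edgeR 4 and 1 of the 42 had an unadjusted p below 0.05, a threshold at which the share of all genes was not counted. Nor was any called by edgeR in the interactions, which ask whether the effect of rab8d-2 differs between a mutant background and WT (0.195% of all genes for gun1-101 and 0.00952% for nac103-11). There 1 and 5 of the 42 had an unadjusted p below 0.05 (share of all genes not counted), and DESeq2 called 0 and 2 (2.14% and 2.62% of all genes by that tool). TOC159 had the smallest unadjusted p of the gun1-101 interaction (-0.45 ± 0.20, adjusted p = 0.445), and TOC64-III of the nac103-11 interaction (-0.68 ± 0.19, adjusted p = 0.179). The 2 genes that DESeq2 called in the nac103-11 interaction were TOC64-III (-0.71, adjusted p = 0.0115) and TOC159 (-0.70, adjusted p = 0.0169). For TIC55-II, SIG5 and TOC64-V neither tool called a difference between backgrounds.

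Other genes of the same processes were taken from lists of 15 import and 14 transcription genes outside the symbol rule. Their calls were not followed through the alternative analyses. Of the 15 import genes, 1 was called in the gun1-101 background, 1 in the nac103-11 background, 1 in the WT background and 4 by the average effect, where 28.3%, 29%, 12.3% and 51.6% of all genes were called. Their median log2 fold change for the average effect was 0.25, against 0.07 over all genes. The 2 stromal HSP93 chaperones differed in sign, with an average change of 0.48 ± 0.13 for HSP93-III (adjusted p = 0.00618) and -0.44 ± 0.15 for HSP93-V (adjusted p = 0.0213). FTSH12 and FTSHI1, subunits of the inner envelope import motor, rose by 0.63 ± 0.14 (adjusted p = 0.00243) and 0.31 ± 0.12 (adjusted p = 0.0407).

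Of the 14 transcription genes, 6 were called higher (27.1% of all genes) and none lower (24.5%) by the average effect, with a median log2 fold change of 0.47 against 0.07 over all genes. The phage-type polymerase RPOTp averaged 22.8 ± 2.81 CPM in gun1-101 rab8d-2, against 8.6 ± 0.341 CPM in gun1-101 roots (SD, n = 3 each), a log2 fold change of 1.41 ± 0.43 (adjusted p = 0.0241). RPOTmp, the phage-type polymerase targeted to both organelles, averaged 19.8 ± 2.24 CPM in gun1-101 rab8d-2, against 8.67 ± 1.62 CPM in gun1-101 roots (adjusted p = 0.00685), and 14.7 ± 4 CPM in rab8d-2, against 7.44 ± 2.33 CPM in WT roots (SD, n = 3 each, adjusted p = 0.039). In the nac103-11 background neither was called, with changes of 0.44 ± 0.42 (adjusted p = 0.461) for RPOTp and 0.51 ± 0.28 (adjusted p = 0.189) for RPOTmp. Nor was RPOTp called in the WT background (0.90 ± 0.42, adjusted p = 0.167). The average changes were 0.91 ± 0.24 (adjusted p = 0.00635) for RPOTp and 0.90 ± 0.16 (adjusted p = 0.000458) for RPOTmp. The polymerase-associated superoxide dismutase FSD2 and the regulator RCB had average changes of 0.89 ± 0.23 (adjusted p = 0.00464) and 0.75 ± 0.14 (adjusted p = 0.000416). PRIN2 and TRX z, which act with the bacterial-type polymerase, rose by 0.53 ± 0.12 (adjusted p = 0.00264) and 0.34 ± 0.11 (adjusted p = 0.0208). None of the 6 sigma factors and 3 of the 14 PTAC genes rose in the same comparison.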

How the data were processed

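Root RNA of 18 libraries was measured by mRNA sequencing. The authors deposited 1 table of expected counts per gene made with RSEM 1.3.1 on TAIR10, per the submitters' processing notes. The same table holds the authors' TPM values (as deposited, they sum to 67.1% to 79.5% of a full TPM total). Expected counts were rounded to whole numbers (19.6% were off by more than 1e-06) and tested with edgeR 4.0.16 (TMM, filterByExpr, robust quasi-likelihood fit, 18 libraries, 1 term per genotype) under R 4.3.3, with Benjamini-Hochberg adjustment over 21004 genes. DESeq2 1.42.0, limma 3.58.1 on log2(TPM + 1), other scalings and filters, left-out libraries, a replicate block, a length correction and a clock term were alternatives. The fit was tested on simulated data. Named genes were the 42 members, with library values for those called for rab8d-2 or an interaction and for the extremes of level per role. Members, lists and several alternatives were chosen with earlier results of these data known. The length and clock alternatives, the second set of left-out libraries and the printed promoters were chosen after seeing the data. Libraries 1 and 2 of gun1-101 rab8d-2 were unusually alike (chi-square per degree of freedom 2.14, others 12.1 to 182) and were kept as 2. Expected counts off whole numbers in most libraries mark reads shared with other genes for TOC159, TOC132, TOC120, TIC20-I, TIC20-V, TIC32-IVa, TIC55-II and PTAC18. The 12 deposited columns of genotype means were not used.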

Additional observations from a re-analysis of the deposited data

How the results depend on the processing

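Counts of the 42 genes called under other settings are given with the share of all genes called under the same setting in parentheses. In the gun1-101 background the count of 7 became 18 with the libraries of the compared genotypes only (53.9%), 3 with a term for CCA1 (21.7%), 13 without WT replicate 3 and replicate 3 of nac103-11 rab8d-2 (44.9%), and 13 without WT replicates 1 and 2 and that same replicate (44.3%). In the nac103-11 background the count of 5 became 11 with DESeq2 (34.4%), 2 with the compared genotypes only (14.3%), 9 with the CCA1 term (30.7%), and 12 (41%) and 13 (40.5%) with those 2 sets left out. In the WT background the count of 3 became 0 with the compared genotypes only (0.377%) and 18, 15 higher and 3 lower, with the first set left out (37.6%). The WT libraries left in that fit were replicates 1 and 2, whose levels relative to the mean of the 18 libraries fell with transcript length. The median log2 fold change of the 42 there was 0.46, and -0.02 with the second set left out. The average effect called 15, and 23, 16 higher and 7 lower, with the first set left out (64.9%). For gun1-101 rab8d-2 against rab8d-2 the count of 0 became 3 with DESeq2 (9.63%), 2 with the CCA1 term (5.12%) and 7 with either set left out (15.5% and 16%). For nac103-11 rab8d-2 against rab8d-2 the count of 2 became 1 without a filter (1.6%), with limma (3.36%) and with either set left out (2.06% and 1.83%), and 0 with the replicate block (0.581%), the compared genotypes only (0.00995%) and the length trend removed (1.77%). The count of 0 in gun1-101 against WT became 12, 9 higher and 3 lower (18.6%), and 1 (0.107%) with the sets left out, and in nac103-11 against WT 6 (5.75%) and 1 (0.89%). The interaction with nac103-11 had 2 calls with DESeq2 (2.62%). TOC159 in the WT background was -0.08 with the length trend removed, the one change of sign among 32 called values, of which 13 were called under every alternative. Leaving out 1 library gave 3 to 8 calls in the gun1-101 background (18.1% to 36.9%). There were 3 or 4 with any gun1-101 library or replicate 1 or 2 of its double mutant left out (18.1% to 19.4%). In the nac103-11 background it gave 3 to 9 calls (18.9% to 32.4%). There were 3 with any nac103-11 library left out (18.9% to 23.2%) and 9 without WT replicate 3 (31.6%). In the WT background it gave 0 to 6 calls, with 0 without rab8d-2 replicate 2 (2.1%) and 1 without WT replicate 2 (3.52%). The count of 6 came without WT replicate 3 (17%) or the third library of nac103-11 rab8d-2 (22.1%). The average effect had 10 to 18 calls (45.2% to 59.7%). Each double mutant against rab8d-2 had 0 to 2 (0.985% to 8.43% for gun1-101 rab8d-2, 0.212% to 4.58% for nac103-11 rab8d-2). The other comparisons had 0. Most same-numbered libraries did not deviate together (13 of 45 pairs correlated above 0.1, and 6 of 18 libraries best with their own number), so the replicate block is an alternative. Pair correlations ran from -0.56 to 0.46. In WT, rab8d-2 and gun1-101 rab8d-2, CCA1 was above 1 TPM in replicate 3 alone, so clock state went with replicate number there. Of the 32 calls, 8 were lost with the replicate block, 8 with limma on log2(TPM + 1), 8 with the CCA1 term, 7 beside the change of sign with the length trend removed, 4 and 5 with the 2 sets left out, 4 without a filter, 1 with DESeq2's size factors and 0 with DESeq2's own test. With the compared genotypes only, 9 of the 17 that could be fitted were lost. The cause of these differences was not tested. Depth limits SIG4, TOC75-IV and PTAC16, the genes with the fewest reads.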
